A study of Mus musculus with 21 samples.

Results

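The genes described here are 9 transcription factors that set or mark the identity of microglia and macrophages: Sall1, Sall3, Mef2a, Mef2c, Maf, Irf8, Spi1 (which encodes PU.1), Runx1 and Cebpb (which encodes C/EBPβ). They were picked by name, with earlier results of these data known, and all 9 were found by gene symbol among the 45706 genes of the table, of which 45143 carried a symbol. RNA was measured in 21 libraries that form 7 groups of 3. The groups were microglia from WT sham controls, microglia from WT mice and from mice with the fibrinogen allele Fgg390-396A (microglia from Fgg γ390–396A mice below) at 1 d and at 7 d after controlled cortical impact (CCI, a model of traumatic brain injury), and, at 1 d alone, infiltrating myeloid cells of each genotype. The allele removes the site on fibrin that binds the integrin CD11b and leaves clotting intact. All animals were adult males, sham controls had surgery without the impact, and each library pooled the sorted cells of a pair of brains. Microglia were sorted as CD45 low CD11b+ cells and infiltrating myeloid cells as CD45 high CD11b+ cells, so these are gates on surface protein and not lineages. No sham group carried the mutant allele, so a difference between injured mutant mice and sham controls holds injury and genotype together.

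Microglia arise from the yolk sac and settle in the brain before birth, and monocytes and neutrophils reach it from blood after injury. PU.1, RUNX1, IRF8 and C/EBP factors act in myeloid cells more widely, and PU.1 binds most of the enhancers that macrophages use. SALL1, SALL3, MEF2A, MEF2C and MAF are added to that shared base in microglia, where TGF-β signalling keeps SALL1 expressed and SALL1 holds genes of the resting state on and inflammatory genes off. C/EBPβ, in contrast, is a factor of the inflammatory response and of blood-derived myeloid cells.

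The label of each gate was compared with marker genes. The summed level of 7 microglia markers, Tmem119, P2ry12, Siglech, Sparc, Olfml3, Gpr34 and Cx3cr1, was 7974 to 8880.3 CPM (counts relative to library size, scaled between libraries) in sham microglia and 135 to 427 CPM in infiltrating myeloid cells, and no marker was at 0 in a group. It was 1481 to 2751 CPM in WT microglia and 3049 to 4534 CPM in mutant microglia at 1 d, and 4880.0 to 6230.1 CPM at 7 d. The 11 neutrophil markers summed to 2799 to 13276 CPM in infiltrating cells and to 106 to 872 CPM in microglia, with no separation between sham and injured microglia. The 7 monocyte markers summed to 783 to 1219 CPM in infiltrating cells and to at most 63.7 CPM in microglia. The 5 astrocyte markers summed to 44.1 to 53.7 CPM in sham microglia, 13.1 to 23.1 CPM at 1 d and 33.7 to 40.9 CPM at 7 d over both genotypes, all injured libraries being below the sham libraries, and Slc1a3 made up most of the sum in sham microglia (33.3 to 42.8 CPM) while Gfap was at most 0.127 CPM there. The 5 oligodendrocyte markers summed to 25.0 to 30.7 CPM in sham microglia and were higher at 7 d, at 45.1 to 71.1 CPM in WT and 37.7 to 48.4 CPM in mutant mice. The 8 markers of border macrophages summed to 4.91 to 254 CPM in microglia and to 1348 to 2220 CPM in infiltrating cells. In bulk libraries, fewer cells of a type and less RNA per cell cannot be told apart, and the part of cell make-up in the results below was not tested. Library totals ranged from 18896957 to 51875767 counts, of which ribosomal RNA took 43.0% to 58.6% (43.6% to 47.9% in sham microglia, 50.7% to 58.6% in WT and 47.2% to 52.5% in mutant microglia at 1 d, 48.7% to 55.8% in both at 7 d), and a floor of 3 counts stood at 0.0448 to 0.158 CPM. These limits cover counting error only. Fgg, the gene that carries the allele and is made by the liver, had 0 counts in every WT and sham library and 2 to 14 counts in each of the 6 libraries of mutant microglia, so these low counts followed the genotype labels there. In mutant infiltrating cells 1 library had 1 count and the others 0. Counts per gene do not show the altered bases.

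The genes lie at these places in GRCm38. Sall1 is at chr8:89027235-89044162 on the minus strand, Maf at chr8:115682942-115707794 on the minus strand and Irf8 at chr8:120736358-120756694 on the plus strand. Mef2a is at chr7:67231163-67372858 on the minus strand and Mef2c at chr13:83504034-83667080 on the plus strand. Spi1 is at chr2:91082390-91115756 and Cebpb at chr2:167688915-167690418, both on the plus strand. Runx1 is at chr16:92601466-92826149 on the minus strand. Exons of 4 of the 9 genes share bases with a gene on the other strand: 312 of the 1504 exonic bases of Cebpb with Tmem189, 440 of 8241 of Maf with Gm15655, 302 of 14681 of Mef2a with Lysmd4 and 106 of 12025 of Runx1 with Gm26626. The strand setting of the quantification is not given in the sources used here, and without strand the reads of the shared bases cannot be told apart.

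Promoter sequence is shown for 4 genes of 4 families, Sall1, Mef2a, Irf8 and Cebpb. Sall1 and Irf8 had further start sites that are not shown, and counts per gene do not show which start was used. Of the 9 genes, 6 had an entry in the set of RefSeq promoters used here (GRCm38.p6). The 4 were chosen after their values were seen, with Mef2c and Runx1 not shown. The 200 bases before the first start site are given 5′ to 3′ on the strand of the gene. Capitals mark matches, on either strand, to the motifs spelled out after the sequences. The MEF2 motif was not marked, and it had no match in these windows. The windows are chr8:89044163-89044362 (minus) for Sall1, chr7:67372859-67373058 (minus) for Mef2a, chr8:120736158-120736357 (plus) for Irf8 and chr2:167688715-167688914 (plus) for Cebpb.
Sall1: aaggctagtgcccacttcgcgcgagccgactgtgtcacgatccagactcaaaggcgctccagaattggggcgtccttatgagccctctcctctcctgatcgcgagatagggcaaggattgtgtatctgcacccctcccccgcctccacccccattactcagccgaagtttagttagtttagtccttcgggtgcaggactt
Mef2a: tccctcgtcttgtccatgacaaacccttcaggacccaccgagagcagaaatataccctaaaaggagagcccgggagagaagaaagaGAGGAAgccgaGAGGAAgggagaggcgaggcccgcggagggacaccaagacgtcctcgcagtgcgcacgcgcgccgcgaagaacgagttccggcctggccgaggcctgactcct
Irf8: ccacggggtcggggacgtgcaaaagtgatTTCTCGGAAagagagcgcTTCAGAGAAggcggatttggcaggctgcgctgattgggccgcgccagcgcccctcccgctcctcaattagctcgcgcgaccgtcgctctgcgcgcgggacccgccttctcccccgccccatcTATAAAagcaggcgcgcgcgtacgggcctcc
Cebpb: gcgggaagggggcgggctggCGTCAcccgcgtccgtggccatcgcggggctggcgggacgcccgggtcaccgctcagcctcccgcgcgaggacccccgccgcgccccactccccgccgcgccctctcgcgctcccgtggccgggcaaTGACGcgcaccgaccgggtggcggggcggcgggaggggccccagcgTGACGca

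The Mef2a window held 2 copies of GAGGAA, whose first bases lie 114 and 103 bases before the start. Irf8 carried 2 matches to TTCNNNGAA at 171 and 153 bases and TATAAA at 31 bases before the start. Cebpb carried TGACG at 53 and 7 bases and its reverse complement at 180 bases. The Sall1 window shown held none of the letters searched, while TGACG lay 105 bases before start site 2 of Sall1, which is not shown. The motifs and their share among 32851 RefSeq start sites, each searched over the 250 bases before it on both strands, were these. GAGGAA, the core that PU.1 binds, was found in 23.3% of the windows and TGTGGT, for RUNX, in 14.0%. TTGCNNAA, for C/EBP, was found in 9.56% and TGANTCA, for AP-1, in 6.75%. TTCNNNGAA, for STAT, was found in 7.02% and TATAAA, the TATA box, in 12.4%. TGACG, a short piece of the cAMP response element, was found in 17.8% and the MEF2 motif in 0.508%. A match is a description of the letters and not evidence of binding.

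In sham microglia 3 factors of the microglia set, Mef2c, Mef2a and Sall1, stood at the top. Because gene length is divided out of the deposited values, levels of different genes may be set side by side on the CPM scale. The order by mean level (n = 3) was Mef2c at 278 CPM, Mef2a at 240.1, Sall1 at 211, Spi1 at 125, Maf at 119, Runx1 at 72.3, Irf8 at 65.2, Sall3 at 24.3 and Cebpb at 5.05 CPM. Neighbours whose ranges over the libraries overlapped were Mef2c and Mef2a, Mef2a and Sall1, Spi1 and Maf, and Runx1 and Irf8. The genes were measured in the same libraries, so overlap of ranges does not show that they were alike. Within every sham library Mef2c was above Mef2a, Spi1 above Maf and Runx1 above Irf8, while the order of Mef2a and Sall1 varied. In WT microglia at 1 d, Mef2c was still first at 208 CPM, Spi1 was next at 119 and Mef2a after it at 111, with overlap between the latter pair. Sall1 stood at 63.4 CPM and overlapped both Runx1 above it and Irf8 below it, and Sall3 and Cebpb shared the last places at 10.9 CPM each. In WT infiltrating myeloid cells Spi1 was first at 204 CPM, then came Mef2a at 137, Cebpb at 62.2 and Runx1 at 61.6, and the last places went to Sall1 at 4.43 and Sall3 at 0.946 CPM.

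**Figure D1:**
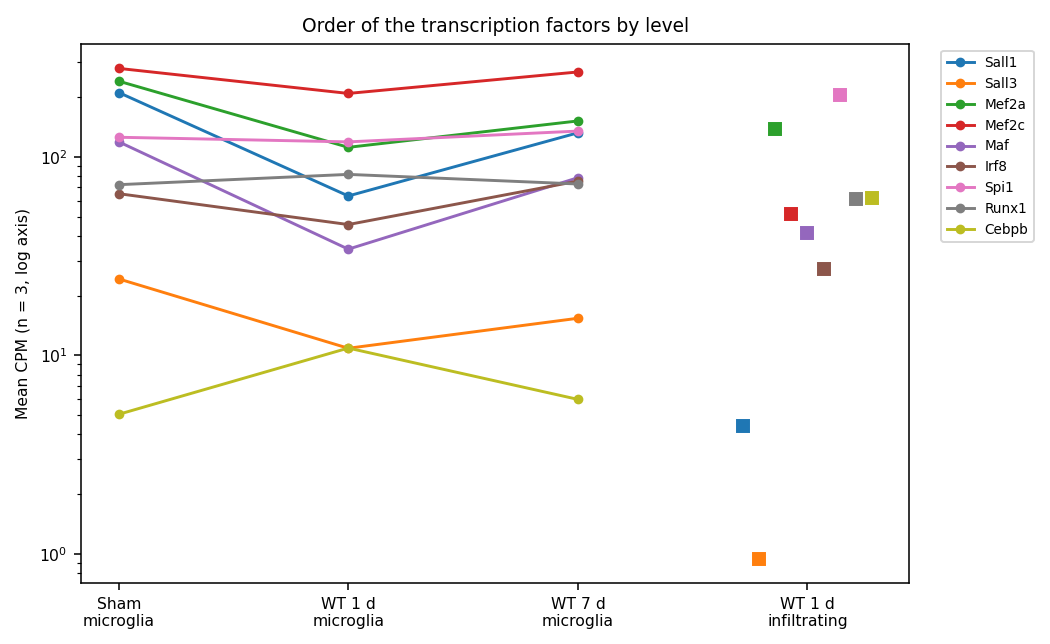
Mean CPM (log axis, n = 3 libraries per group) of the 9 transcription factors in sham microglia, WT microglia at 1 d and 7 d (joined circles) and WT infiltrating myeloid cells at 1 d (squares, set side by side so that none is hidden). Sall1 went from 211 to 63.4 CPM at 1 d and stood at 132 CPM at 7 d, and Cebpb, last in sham microglia at 5.05 CPM, stood behind only Spi1 and Mef2a in infiltrating cells at 62.2 CPM.

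The first comparison asks how the factors stood in WT microglia 1 d after CCI against sham controls. Of the 9 genes, 6 passed the test (edgeR's quasi-likelihood test over 23815 genes, Benjamini-Hochberg adjusted p under 0.05), where 16.7% of all genes tested did. Sall1, Sall3, Mef2a, Mef2c and Maf were lower, against 5.97% of all genes tested, and Cebpb was higher, against 10.7%. No library of one group reached the range of the other for these 6 genes, as for 33.8% of all genes. Spi1, Runx1 and Irf8 did not pass. With 1 library left out at a time, 4 or 5 of the 9 passed. The median log2 fold change over the 9 genes was -0.52, and it was 0 over all genes tested and 0.16 over the genes with a mean of at least 5 CPM.

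Sall1, the zinc finger repressor that keeps microglia in their resting program, had 205, 214 and 213 CPM in the sham libraries. In WT microglia at 1 d the libraries held 89.4, 61.1 and 39.9 CPM, all under the lowest sham library and far more spread than the sham libraries. The log2 fold change was -1.73 ± 0.30 (SE, adjusted p = 0.00036), a 3.32-fold lower level. Sall3 (chr18:80966376-80986771, minus strand), a close relative of Sall1 whose part in microglia is less well described, went from 21.9 to 27.4 CPM in sham microglia to 7.80 to 12.6 CPM, with a log2 fold change of -1.16 ± 0.34 (adjusted p = 0.023). That call was lost without sham replicate 3 (adjusted p = 0.073), without WT 1 d replicate 2 (0.05, no longer under it) and without WT 1 d replicate 3 (0.14). Sall2, the other relative tested, did not pass, with a log2 fold change of -1.51 ± 0.75 (adjusted p = 0.2). The summed microglia markers and the summed astrocyte markers moved with the SALL factors, as given above, and their part in the result was not tested. The share of ribosomal RNA did not overlap between these 2 groups either, and with ribosomal RNA genes left out every factor kept its direction and its side of the threshold.

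Maf, a leucine zipper factor of tissue macrophages, gave the smallest adjusted p of the 9 genes in this comparison. The sham libraries held 105, 118 and 133 CPM. WT microglia at 1 d held 34.4, 32.3 and 36.0 CPM, with little spread and no overlap. The log2 fold change was -1.80 ± 0.24 (adjusted p = 2e-05). Gm15655, which shares exonic bases with Maf on the other strand, fell with it, from 71.0 to 26.1 CPM on average (log2 fold change -1.44, adjusted p = 0.0014).

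The paired MADS-box factors MEF2A and MEF2C, which bind the same motif and serve microglial enhancers next to PU.1, fell by different amounts. Mef2a had 192, 273 and 255 CPM in the sham libraries and 117, 118 and 99.4 CPM in WT microglia at 1 d. The groups were far apart, and the log2 fold change was -1.11 ± 0.19 (adjusted p = 0.00031). Mef2c had 262, 287 and 287 CPM in sham microglia and 206, 225 and 194 CPM at 1 d. These groups did not overlap either, but the log2 fold change was only -0.42 ± 0.14 (adjusted p = 0.043), and that call was lost when any 1 of the 6 libraries was left out (adjusted p 0.057 to 0.21). The log2 ratio of Mef2c to Mef2a within a library was 0.23 ± 0.19 (SD, n = 3) in sham microglia and 0.90 ± 0.08 in WT microglia at 1 d, with no overlap, though an exact permutation test of 3 libraries against 3 cannot go below p = 0.1. Mef2d, another member of the family, did not pass, with a log2 fold change of -0.21 (adjusted p = 0.44).

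The 3 factors of the shared myeloid base did not pass. Spi1, the lineage-defining ETS factor, had 114, 125 and 137 CPM in sham microglia and 105, 129.6 and 122 CPM at 1 d. After scaling between libraries these values interleaved, and the 95% interval of the log2 fold change was -0.38 to 0.22. The scaling factors did not overlap between these groups, and levels without scaling were not compared. Runx1, a core factor of blood cell development, had a log2 fold change of 0.17 with an interval of -0.18 to 0.53. Irf8, the partner of PU.1 needed for microglia and monocytes, had 55.4, 64.9 and 75.2 CPM in sham microglia and 42.9, 56.7 and 37.1 CPM at 1 d. One WT library lay above the lowest sham library, and the log2 fold change of -0.52 ± 0.21 did not pass (adjusted p = 0.1). It did pass with the Wald test of DESeq2 (adjusted p = 0.013) and when microglia were fitted without the infiltrating cells (0.033).

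Cebpb was the single gene of the 9 that passed as higher. The sham libraries held 5.67, 3.64 and 5.83 CPM and the WT microglia at 1 d 8.47, 10.1 and 14.0 CPM. After scaling between libraries, every injured library was above every sham library, at a low level throughout. The scaling factors themselves did not overlap, at 1.39 to 1.55 in sham and 0.741 to 1.11 in WT 1 d libraries. The part of this scaling in the rise was not tested. The log2 fold change was 1.10 ± 0.27 (adjusted p = 0.0068), and the call held without any 1 of the 6 libraries (adjusted p 0.0045 to 0.048). Tmem189, whose exons overlap those of Cebpb, rose by about as much (log2 fold change 1.01, adjusted p = 0.0021) from 11.2 to 22.5 CPM. Cebpb rose in the order of WT 1 d replicates 1, 2 and 3. In that order neutrophil markers summed to 843, 174 and 568 CPM and monocyte markers to 63.7, 5.57 and 14.6 CPM. Border macrophage markers summed to 192, 128 and 231 CPM and microglia markers to 2751, 2327 and 1481 CPM. The part of cell make-up in the level of Cebpb was not tested.

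**Figure D2:**
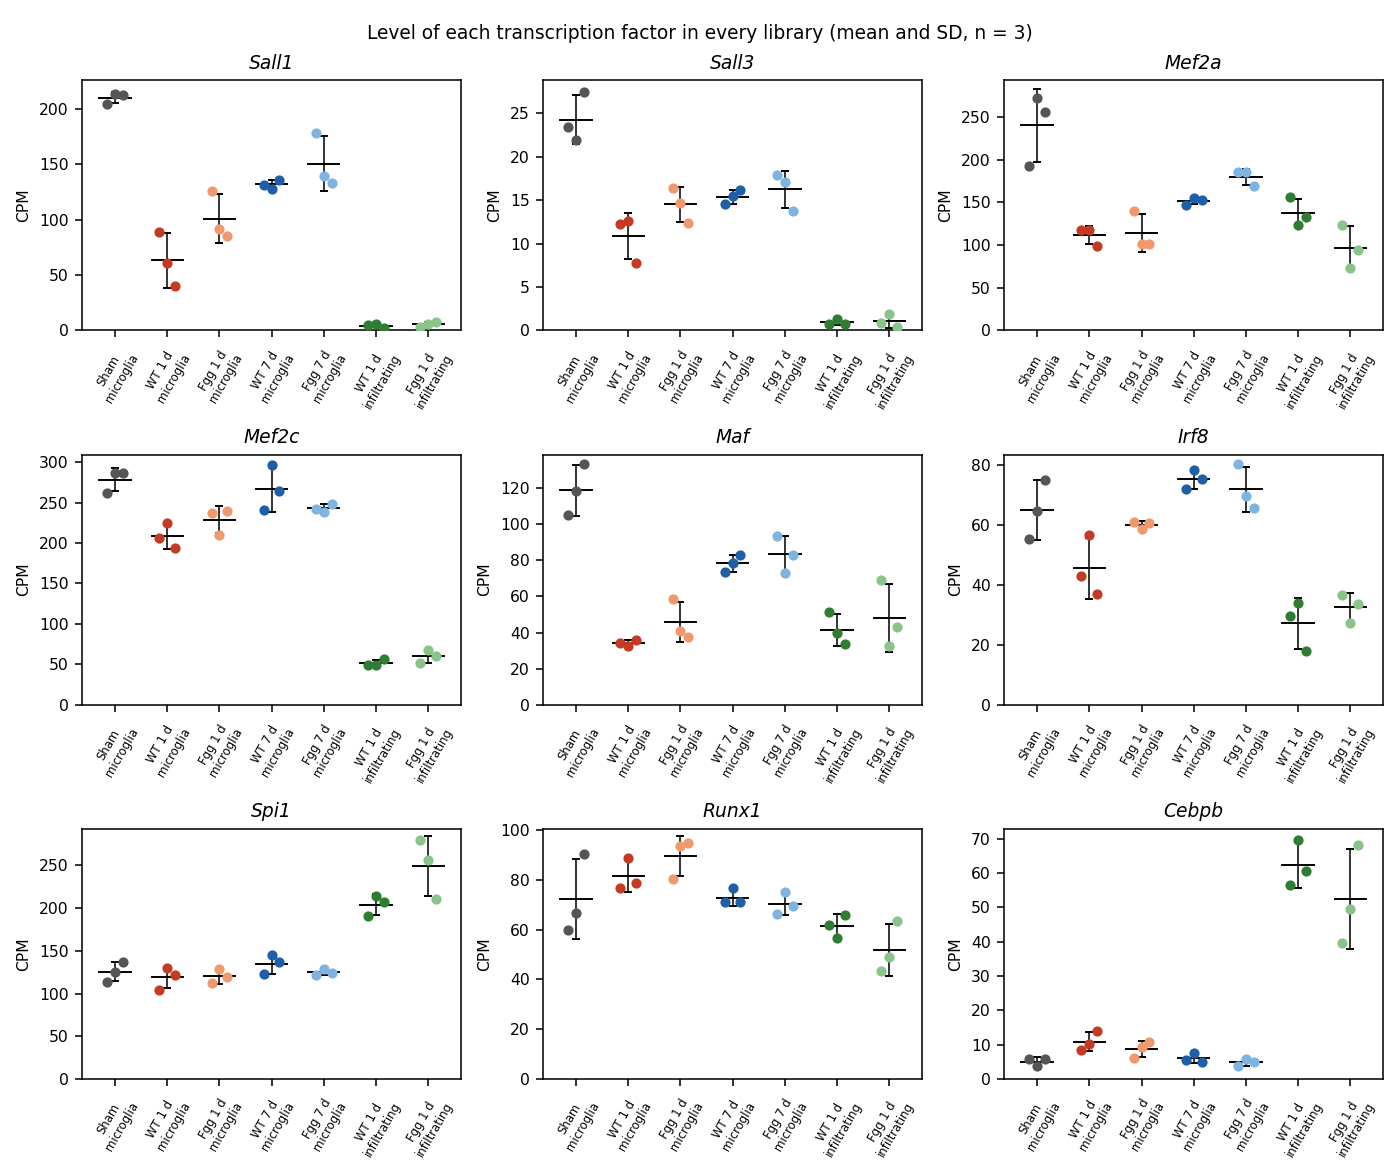
CPM of each of the 9 transcription factors in every library, by group, with the mean and SD of the 3 libraries. Sall1, Sall3, Mef2a and Maf are lower in every 1 d microglia library than in sham microglia, Spi1 and Runx1 hardly move among the microglia groups, and Cebpb stands at 39.5 to 69.6 CPM in infiltrating cells against 3.64 to 14.0 CPM in microglia.

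In microglia from Fgg γ390–396A mice at 1 d, 3 of the 9 genes differed from sham controls, all lower, where 9.8% of all genes tested passed and 2.19% were lower. The libraries did not overlap for 6 of the 9 genes, against 29% of all genes. Maf had 58.4, 40.9 and 37.8 CPM (log2 fold change -1.38 ± 0.23, adjusted p = 0.00048) and Mef2a 140.2, 102 and 101 CPM (-1.07 ± 0.19, adjusted p = 0.00074). For both genes the first replicate was the highest of the 3 and still below every sham library. Gm15655 was lower along with Maf (log2 fold change -1.18, adjusted p = 0.011).

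Sall1 had 126, 92.0 and 85.3 CPM in microglia from Fgg γ390–396A mice at 1 d, again with replicate 1 nearest to sham. The log2 fold change against sham controls was -1.06 ± 0.30 (adjusted p = 0.026). That call was lost in 5 of the 6 fits with 1 library left out: without each of the sham libraries (adjusted p 0.057 to 0.07), without mutant replicate 2 (0.11) and without mutant replicate 3 (0.13). Sall3 at 12.3 to 16.4 CPM did not pass (log2 fold change -0.74, adjusted p = 0.22), nor did Mef2c at 209.6 to 239.6 CPM (-0.28, adjusted p = 0.25). Both passed with DESeq2, which called 5 of the 9 genes and 15% of all genes, at adjusted p of 0.05 (just under it before rounding) for Sall3 and 0.0049 for Mef2c. Cebpb, at 6.09, 9.24 and 10.9 CPM, lay above the sham libraries but did not pass (log2 fold change 0.78 ± 0.27, adjusted p = 0.079). Without mutant replicate 1, its lowest library, it did (adjusted p = 0.025). Tmem189, which overlaps Cebpb, passed as higher with all libraries (log2 fold change 0.81, adjusted p = 0.017). Spi1, Irf8 and Runx1 did not pass, with log2 fold changes of -0.06, -0.11 and 0.31.

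The comparisons against sham controls at 1 d share those controls, so the WT and mutant values are to be read side by side and not as 2 independent tests. Whether the genotypes differed was asked directly. When mutant and WT microglia at 1 d were compared, 0 of the 9 genes passed the test of edgeR, where 0.042% of all genes tested (10) did, and 0 passed with DESeq2 (0.344%). At an unadjusted p under 0.05 the count was 1, against 5.07% of all genes. That gene was Sall1, whose log2 fold change of 0.67 had an interval of 0.04 to 1.31 and an adjusted p of 0.89. The Sall1 libraries overlapped, since the highest WT library at 89.4 CPM was above the lowest mutant library at 85.3 CPM. For 2 genes, Irf8 and Maf, the mutant libraries lay wholly above the WT libraries, as for 8.72% of all genes in either direction. Irf8 had 61.0, 58.9 and 60.8 CPM in mutant microglia, a narrow range just over the 56.7 CPM of the highest WT library, and a log2 fold change of 0.40 (interval -0.04 to 0.84). The log2 fold change of Maf was 0.42 (interval -0.08 to 0.91). Of the remaining genes, Sall3 gave 0.42 (interval -0.31 to 1.14), Cebpb -0.32 (-0.89 to 0.25), Runx1 0.14 (-0.22 to 0.49), Mef2c 0.13 (-0.16 to 0.43), Mef2a 0.03 (-0.37 to 0.44) and Spi1 0.01 (-0.29 to 0.32). The intervals of Sall1 and Sall3 reached past 1 log2 unit, and those of the other genes did not.

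**Figure D3:**
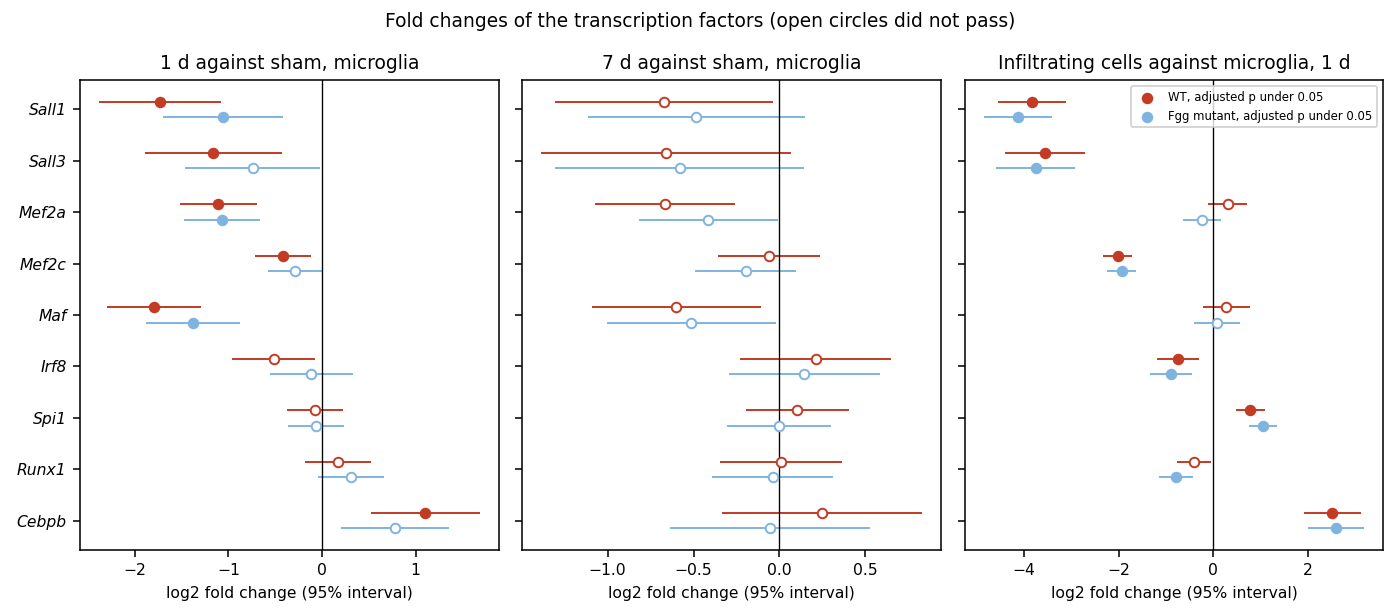
Log2 fold change (points) and 95% interval (lines) of each gene in WT (red) and Fgg γ390–396A (blue) libraries, for 1 d against sham microglia, 7 d against sham microglia, and infiltrating cells against microglia at 1 d. Filled points passed at an adjusted p under 0.05 and open points did not, the horizontal ranges differ between panels, and at 7 d all points are open.

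At 7 d none of the 9 genes passed the test. Against sham controls, 0 of the 9 genes passed in WT microglia (2.69% of all genes tested) and 0 in microglia from Fgg γ390–396A mice (0.886%). With DESeq2 the counts were 1 and 0 (5.48% and 2.48%), and at an unadjusted p under 0.05 they were 3 and 2, against 11.7% and 7.59% of all genes. WT microglia held 131, 128 and 136 CPM of Sall1, about 62.7% of the sham mean, with all libraries below sham and a log2 fold change of -0.67 (interval -1.31 to -0.04, adjusted p = 0.37), which passed in a fit of these groups alone (adjusted p = 0.025). Mef2a held 147, 155 and 152 CPM, also below every sham library (log2 fold change -0.67 ± 0.19, adjusted p = 0.071). Mef2a was the gene that passed with DESeq2 (adjusted p = 0.0091) and when microglia were fitted alone (0.033), and it passed without sham replicate 1 (0.048), its lowest sham library.

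Maf stood at 73.7, 78.3 and 83.2 CPM at 7 d in WT microglia and at 93.6, 73.1 and 83.1 CPM in mutant microglia, both below the 105 CPM of the lowest sham library. Sall3 stood at 14.5 to 16.2 and at 13.8 to 17.8 CPM, again under every sham library. Libraries failed to overlap with sham for 4 of the 9 genes in WT mice (20.1% of all genes) and for 5 in mutant mice (15.7%). Sall1, Sall3, Mef2a and Maf were below every sham library in both genotypes, and Mef2c, at 238.5 to 247.9 CPM, in mutant mice. Cebpb at 3.87 to 7.60 CPM, Irf8 at 65.8 to 80.5, Spi1 at 122 to 145 and Runx1 at 66.3 to 76.6 CPM overlapped the sham libraries at 7 d in both genotypes.

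From 1 d to 7 d, 4 of the 9 genes changed in WT microglia (10.3% of all genes tested), 3 of them upward (3.7%) and 1 downward (6.6%). The absolute log2 fold change was also above 1 for 2 of the 4 (7.06%). Maf rose by a log2 fold change of 1.19 ± 0.23 (adjusted p = 0.0018), and that call held without any 1 of the 6 libraries (adjusted p 0.0059 to 0.018). Gm15655, which overlaps Maf, rose with it (1.15, adjusted p = 0.013). Sall1 rose by 1.06 ± 0.30 (adjusted p = 0.026) and Irf8 by 0.73 ± 0.21 (adjusted p = 0.027), from 37.1 to 56.7 CPM at 1 d to 72.1, 78.5 and 75.5 CPM at 7 d. Cebpb fell (log2 fold change -0.86 ± 0.27, adjusted p = 0.049), and Tmem189, which overlaps it, fell too (-0.81, adjusted p = 0.017). The calls of Sall1 and Irf8 were each lost in 5 of the 6 fits with 1 library left out (adjusted p up to 0.2 and 0.21), the exceptions being those without WT 1 d replicate 1 for Sall1 and replicate 2 for Irf8. That of Cebpb was lost in 4 of 6 (adjusted p up to 0.21), without WT 1 d replicates 2 and 3 and WT 7 d replicates 1 and 3. With DESeq2, Mef2a (adjusted p = 0.033) and Mef2c (0.0019) passed too, and 16.3% of all genes did. For 8 of the 9 genes the libraries did not overlap between the times, against 29.4% of all genes.

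In microglia from Fgg γ390–396A mice 2 of the 9 genes changed from 1 d to 7 d (5.64% of all genes tested), both upward (1.08%) and neither by more than 1 log2 unit (3.54%), Maf by a log2 fold change of 0.87 ± 0.23 (adjusted p = 0.03) and Mef2a by 0.66 ± 0.19 (adjusted p = 0.046). Both calls depended on single libraries. Maf was lost without mutant 1 d replicates 2 or 3 and without mutant 7 d replicates 1 or 3 (adjusted p 0.082 to 0.16), and Mef2a without any library but mutant 1 d replicate 1 (adjusted p 0.09 to 0.23). Libraries did not overlap for 6 of the 9 genes, against 27.3% of all genes. Gm15655, which overlaps Maf, did not pass here (log2 fold change 0.96, adjusted p = 0.058).

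Between genotypes at 7 d, 0 of the 9 genes passed the test of edgeR (0.0378% of all genes tested), 0 passed with DESeq2 (0.307%), and 0 had an unadjusted p under 0.05 (3.34% of all genes). The log2 fold changes lay between -0.30 for Cebpb and 0.25 for Mef2a. Mef2a was the 1 gene whose libraries did not overlap, with 169 to 186 CPM in mutant and 147 to 155 CPM in WT microglia, against 11.1% of all genes. The difference of the genotype effect between 7 d and 1 d was tested as well. For 0 of the 9 genes, and for 0% of all genes tested, did it pass, and 2.74% of all genes, none of the 9, had an unadjusted p under 0.05. For Sall1 that difference was -0.48 with an interval of -1.38 to 0.41.

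Infiltrating myeloid cells differed from microglia of the same genotype and day in 6 of the 9 genes in WT mice (15.7% of all genes tested) and in 7 in Fgg γ390–396A mice (21.4%). Sall1, Sall3, Mef2c and Irf8 were lower in both genotypes and Cebpb and Spi1 were higher, and Runx1 was lower in mutant mice. Of all genes tested, 8.11% were lower and 7.56% higher in WT mice, and 12.1% lower and 9.33% higher in mutant mice. Libraries did not overlap for 8 genes in WT mice (29.2% of all genes) and 7 in mutant mice (32.1%). The comparisons in the 2 genotypes share no libraries. Beside them stand the marker sums given at the start, which differ between the gates for microglia, neutrophils, monocytes and border macrophages alike. Fewer cells were sorted for an infiltrating library than for a microglia library, so cell input and gate cannot be told apart.

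Sall1 had 5.30, 5.37 and 2.62 CPM in WT and 3.34, 6.07 and 7.81 CPM in mutant infiltrating cells. All 6 libraries were above the floor and below the lowest microglia library at 39.9 CPM. The log2 fold change was -3.84 ± 0.33 in WT mice (adjusted p = 3.2e-07), a 14.3-fold lower level, and -4.13 ± 0.34 in mutant mice (adjusted p = 1.2e-07). Sall3 was at 0.701 to 1.37 CPM in WT and 0.420 to 1.92 CPM in mutant infiltrating cells, with log2 fold changes of -3.55 ± 0.39 (adjusted p = 3.4e-06) and -3.76 ± 0.39 (adjusted p = 1.3e-06). P2ry12, a microglial purinergic receptor, was 3.03 log2 units lower in WT infiltrating cells than in microglia (log2 fold change -3.03, adjusted p = 9.5e-05), near to the size seen for the SALL factors.

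The MEF2 pair separated again, the other way round from 1 d against sham. Mef2c had 48.6, 49.4 and 56.5 CPM in WT and 51.4, 67.9 and 59.8 CPM in mutant infiltrating cells. These values are well under those of any microglia library, and the log2 fold changes were -2.02 ± 0.14 (adjusted p = 3.8e-08) and -1.94 ± 0.14 (adjusted p = 4.4e-08). Mef2a had 156, 124 and 133 CPM in WT and 123, 72.7 and 93.7 CPM in mutant infiltrating cells, close to the microglia of the same day. Its log2 fold changes of 0.30 (interval -0.10 to 0.71) and -0.24 (interval -0.65 to 0.16) did not pass. The log2 ratio of Mef2c to Mef2a was -1.41 ± 0.24 (SD, n = 3) in WT infiltrating cells. Maf did not pass either, with 33.5 to 51.3 CPM and 32.5 to 68.9 CPM and log2 fold changes of 0.28 and 0.07.

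Cebpb had 56.5, 69.6 and 60.5 CPM in WT and 39.5, 49.6 and 68.3 CPM in mutant infiltrating cells. The lowest of these libraries held more than the highest microglia library, and the log2 fold changes were 2.51 ± 0.28 in WT mice (adjusted p = 3.3e-06) and 2.59 ± 0.28 in mutant mice (adjusted p = 2e-06). Tmem189 was higher as well, by 1.67 (adjusted p = 1.8e-05) and 1.37 (adjusted p = 0.00011). Spi1 had 191, 214 and 207 CPM in WT and 279, 256 and 211 CPM in mutant infiltrating cells, all above the 145 CPM of the highest microglia library. Its log2 fold changes were 0.78 ± 0.14 (adjusted p = 0.00059) and 1.05 ± 0.14 (adjusted p = 2.4e-05).

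Irf8 had 29.6, 34.1 and 17.8 CPM in WT and 36.6, 27.3 and 33.8 CPM in mutant infiltrating cells. The log2 fold changes were -0.75 ± 0.21 (adjusted p = 0.017) and -0.89 ± 0.21 (adjusted p = 0.004). In WT mice the call was lost without WT microglia replicate 2 (adjusted p = 0.15) and without WT infiltrating replicate 3 (0.093). Runx1 had 62.0, 56.8 and 66.0 CPM in WT infiltrating cells, below all WT microglia at 1 d, and did not pass (log2 fold change -0.40, adjusted p = 0.11). In mutant mice it had 43.5, 48.9 and 63.6 CPM and passed (-0.79 ± 0.17, adjusted p = 0.0019), but not in a fit of these groups alone (adjusted p = 0.079). The difference between the genotypes in this effect was not shown, since its test gave -0.38 with an interval of -0.88 to 0.12 (adjusted p = 0.71).

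Between the genotypes within infiltrating myeloid cells, 0 of the 9 genes passed the test of edgeR (0.206% of all genes tested) and 0 passed with DESeq2 (2.61%). The 1 gene with an unadjusted p under 0.05, against 11.5% of all genes, was Mef2a, with a log2 fold change of -0.51 (interval -0.91 to -0.10, adjusted p = 0.31). It was also the 1 gene without overlap, by a margin of 124 against 123 CPM, where 8.02% of all genes did not overlap. The remaining log2 fold changes lay between -0.25 for Cebpb and 0.38 for Sall1. The genotype effect differed between infiltrating cells and microglia for 0 of the 9 genes (0.0252% of all genes tested), with 0 at an unadjusted p under 0.05 (8.37% of all genes).

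**Figure D4:**
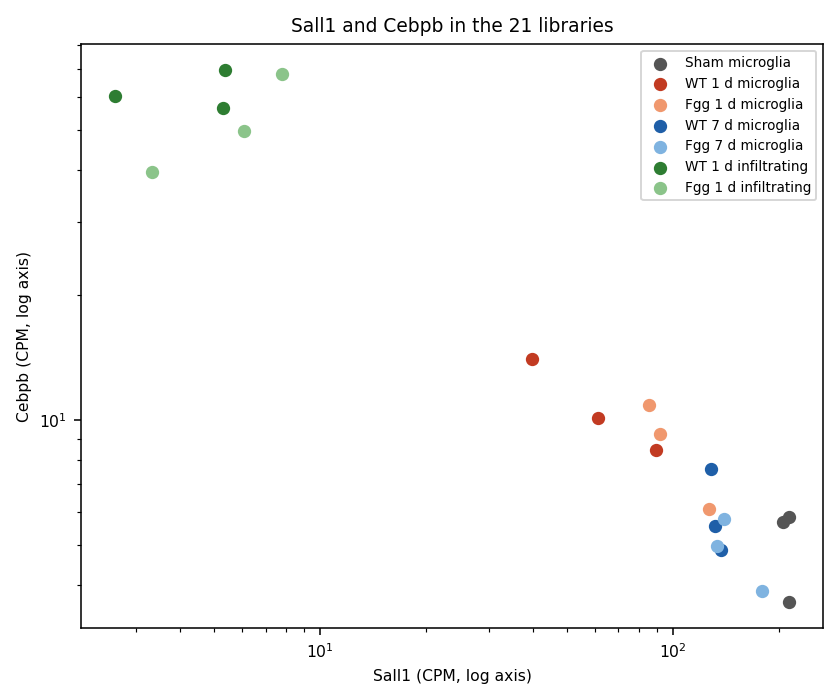
CPM of Sall1 (horizontal, log axis) and Cebpb (vertical, log axis) in each of the 21 libraries, coloured by group. Sham and 7 d microglia sit at the lower right, 1 d microglia are shifted up and to the left with WT replicate 3 farthest (39.9 and 14.0 CPM), and the 6 infiltrating libraries form a separate group at the upper left.

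The plot of Sall1 against Cebpb puts the microglial and the inflammatory factor side by side. The log2 ratio of Cebpb to Sall1 within a library was -5.41 ± 0.40 (SD, n = 3) in sham microglia. It was -2.50 ± 0.95 in WT and -3.55 ± 0.73 in mutant microglia at 1 d, with overlap between the genotypes, and -4.48 ± 0.37 and -4.95 ± 0.51 at 7 d. In infiltrating cells it was above 0, at 3.88 ± 0.58 in WT and 3.24 ± 0.28 in mutant mice. Put as levels, Sall1 exceeded Cebpb 36.1-fold to 58.6-fold in sham libraries and 2.84-fold to 10.5-fold in WT microglia at 1 d, whereas Cebpb exceeded Sall1 10.7-fold to 23.1-fold in WT infiltrating cells.

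Other transcription factors were counted over a fixed list of 60 tested genes, relatives of the 9 and other known regulators of microglia and macrophages. In WT microglia at 1 d against sham, 10 were higher and 13 lower, with a median log2 fold change of -0.31. Of all genes tested, 10.7% were higher and 5.97% lower in that comparison. Among the IRF relatives of Irf8, 0 rose and 4 of 8 fell: Irf2 (log2 fold change -0.75, adjusted p = 0.0035), Irf1 (-1.19, 0.027), Irf3 (-0.76, 0.044) and Irf4 (-2.09, 0.046). Of the 11 ETS relatives of PU.1, Ets2 rose (1.74, adjusted p = 0.00069) and Etv5 (-0.998, 0.0011) and Elf1 (-0.49, 0.022) fell. The relatives and the binding partner of Runx1 all rose, namely Cbfb, the shared partner subunit (0.64, adjusted p = 0.016), Runx2 (1.25, 0.033) and Runx3 (1.60, 0.049), the last pair at means of at most 1.75 CPM.

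Of 6 C/EBP relatives, Cebpg, which lacks an activation domain of its own, fell (log2 fold change -1.25, adjusted p = 2.2e-05) and the other 5 did not pass. Maff, a small MAF protein, rose (3.18, adjusted p = 0.0057) while Maf fell. Among 26 other regulators, the 5 that rose were led by Id2, an inhibitor of helix-loop-helix factors (3.63, adjusted p = 1.6e-06), Bhlhe40 (3.25, 7e-06), Bcl6 (1.51, 0.0012) and Nr4a1 (2.15, 0.005). The 6 that fell were led by Klf3 (-0.88, adjusted p = 0.00076), Usf1 (-1.29, 0.013), Tfe3 (-0.69, 0.018) and Ikzf1 (-0.52, 0.02).

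In microglia from Fgg γ390–396A mice at 1 d, 6 of the 60 were higher and 6 lower than in sham controls. Of all genes tested, 9.8% passed in either direction and 2.19% were lower. Id2 (log2 fold change 2.66, adjusted p = 5.5e-05) and Bhlhe40 (2.44, 0.00025) were again among those higher, and Cebpg (-1.06, 0.00021) and Klf3 (-0.65, 0.014) among those lower. At 7 d the counts were 5 higher and 1 lower in WT and 1 and 0 in mutant mice. Of all genes tested, 2.69% and 0.886% passed in either direction. Irf7, the interferon-induced relative of Irf8, was higher in both, with log2 fold changes of 3.96 (adjusted p = 0.00033) and 3.08 (adjusted p = 0.0053). Between genotypes, 0 of the 60 passed at 1 d, at 7 d or in infiltrating cells, where 0.042%, 0.0378% and 0.206% of all genes did. Infiltrating cells held 24 at a higher and 6 at a lower level than microglia in WT mice and 30 and 9 in mutant mice. Of all genes tested, 7.56% were higher and 8.11% lower in WT mice, and 9.33% and 12.1% in mutant mice. Bhlhe40 (4.87, adjusted p = 7.4e-08), Hif1a (1.90, 5.8e-07) and Runx3 (5.16, 2e-06) were higher in WT infiltrating cells, and Bhlhe41, the relative of Bhlhe40 (-2.13, 1.7e-05), was lower.

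Signals that act on these factors moved as well. Of 6 genes for the TGF-β and CSF1 pathways, 1 was higher and 3 lower in WT microglia at 1 d, against 10.7% and 5.97% of all genes. Tgfbr1, the receptor subunit that relays TGF-β, fell from 444 to 106 CPM on average (log2 fold change -2.06, adjusted p = 3.6e-06), Csf1r, the receptor that microglia need to survive, from 1323 to 690 CPM (-0.94, 0.001), and Tgfb1, the ligand, by a log2 fold change of -0.68 (adjusted p = 0.002). Csf1, a ligand of Csf1r, rose (2.60, adjusted p = 4.7e-06), and Tgfbr2 did not pass (-0.55, adjusted p = 0.056). In mutant microglia Tgfbr1 (-1.43, adjusted p = 0.00023), Tgfb1 (-0.73, 0.0017) and Csf1 (2.01, 0.00011) passed in the same direction. From 1 d to 7 d Tgfbr1 rose in WT microglia (1.30, adjusted p = 0.00059), as Sall1 did, and Csf1r rose too (0.81, adjusted p = 0.0061). Infiltrating cells had less Csf1r (-1.62, adjusted p = 5.4e-06), Tgfbr2 (-1.57, 1.3e-05) and Tgfbr1 (-0.96, 0.0048) and more Tgfb1 (0.96, 9.1e-05) than microglia in WT mice.

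Genes linked to the factors were described by lists, and whether they depended on the factors in these cells was not tested. Of 9 homeostatic genes linked to SALL1, 7 fell in WT microglia at 1 d and 0 rose (median log2 fold change -1.80). Of all genes tested, 5.97% were lower and 10.7% higher in that comparison. Of the 9 genes, 7 are also the microglia markers. P2ry12 (log2 fold change -3.34, adjusted p = 3.3e-05), P2ry13 (-1.78, 4.9e-05), Tmem119 (-1.80, 0.00012) and Siglech (-2.41, 0.00013) had the smallest adjusted p. Cx3cr1 (-0.63, adjusted p = 0.12) and Olfml3 (0.06, 0.98) did not pass. In mutant microglia 4 fell (2.19% of all genes, median -1.01), led by P2ry12 (-1.96, adjusted p = 0.0051) and Gpr34 (-1.44, 0.01). Between the genotypes at 1 d, 0 of the 9 differed (0.042% of all genes, median 0.78). At 7 d 2 were still lower than in sham controls in WT mice and 0 in mutant mice. Of all genes, 2.69% and 0.886% passed there in either direction. All 9 were lower in infiltrating cells than in microglia in both genotypes (8.11% of all genes in WT and 12.1% in mutant mice).

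Of 10 inflammatory genes linked to C/EBPβ, 6 rose and 0 fell at 1 d in each genotype against the shared sham controls. Of all genes tested, 10.7% rose and 5.97% fell in WT microglia, and 9.8% passed in either direction in mutant microglia. In WT microglia the leading ones were Ptgs2, the inducible cyclooxygenase (log2 fold change 7.53, adjusted p = 8.3e-08), Ccl2 (5.27, 5.5e-07), Ccl3 (4.87, 6e-07) and Tnf (4.46, 5.8e-06). These rises are far larger than that of Cebpb itself. Of the 9 myeloid genes linked to PU.1, 5 rose and 2 fell in WT microglia at 1 d, against 10.7% and 5.97% of all genes. Cd14 (3.38, adjusted p = 3.5e-05), Cybb (1.75, 0.00078), Fcer1g (1.10, 0.00091) and Cd68 (0.91, 0.005) rose, and Csf1r (-0.94) and Laptm5 (-0.69, adjusted p = 0.017) fell.

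The genes whose pattern over the 21 libraries was most like each factor were ranked by Pearson r of log2 CPM among 7803 genes with a mean of at least 5 CPM. The libraries share their processing and fall into groups, so r is a description and carries no p. The ranking covers both gates and was not made within microglia. Between the factors, r of Spi1 with Cebpb was 0.86 over the 21 libraries and -0.09 over the 15 microglia libraries. That of Sall1 with Sall3 was 0.97 and 0.93. For Sall1 they were Jam2 (r = 0.994), P2ry13 (0.993) and Golm1 (0.992), for Sall3 Adgrg1 (0.980), Golm1 (0.979) and Fchsd2 (0.977), and for Mef2c Abcd2 (0.990), Jam2 (0.985) and Csmd3 (0.985). P2ry13 is a purinergic receptor of microglia, and Jam2 and Golm1 were each named for more than 1 factor. For Cebpb they were Nfil3 (0.987), Prdx6 (0.985) and Tmod3 (0.979). For Mef2a they were Gng2 (0.943), Klhl9 (0.922) and Tab2 (0.902), and for Maf Bicral (0.960), Il6ra (0.951) and Arhgap17 (0.949). For Irf8 they were Ulk2 (0.954), Frmd4b (0.953) and Tgfbr2 (0.952), for Spi1 Dazap2 (0.956), Stk24 (0.955) and Usp3 (0.953), and for Runx1, whose highest r was the lowest of the 9, Mlec (0.883), Tex261 (0.880) and Fcgr3 (0.878).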

How the data were processed

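RNA-seq was performed on sorted microglia and infiltrating myeloid cells in 21 libraries. According to the methods of the study, reads were mapped to GRCm38 and quantified by salmon, run within nf-core/rnaseq. The authors deposited the resulting expected counts of each gene, scaled so that gene length is divided out and each library sums to its mapped reads, with no normalization between libraries. The submitters' processing notes name R 4.2.0 and DESeq2 1.36.0. Libraries were made with a low-input amplification kit, so reads are not independent molecules.

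Here the expected counts were rounded to whole numbers, and a gene had to reach 5 counts in the sum of its libraries to be tested. Symbols and coordinates came from GENCODE M21, which matched 45143 of 45706 identifiers, while 563 were not matched. The remaining 23815 genes were fitted by edgeR 4.0.16 under R 4.3.3 (TMM scaling by 0.735 to 1.55, glmQLFit, glmQLFTest, 1 mean per group, Benjamini-Hochberg adjustment), with a common biological coefficient of variation of 0.643. A gene passed if its adjusted p was below 0.05. The study mostly asked for an absolute log2 fold change above 1 as well, which is used here as an alternative. Standard errors were taken from the fold change and its F statistic, and 95% intervals from the t distribution. CPM are TMM-scaled. No replicate pair was alike within counting noise (chi-square per degree of freedom of at least 18.6). All 21 libraries were in 1 fit and shared 1 estimate of the spread of each gene. The p-values therefore measure the spread between pooled samples over all 7 groups, and not over the compared groups alone. Groups came from the labels, and every column matched 1 library. The scripts were tested on simulated data.

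All 9 factors are named in every comparison. Of the other lists, up to 4 genes per direction with the smallest adjusted p are named, and any further gene was named after its values were seen. For each factor the 3 genes of most similar pattern are named. The 9 genes and all lists were chosen with earlier results of these data known, so counts over them are descriptions. The alternatives were the Wald test of DESeq2 1.42.0, its size factors, ribosomal RNA left out, other filters on counts, a replicate block, fits of fewer groups, other thresholds and leaving out each library. Protein sequences were not used here. Certain genes of the lists are not reported here and were left out of their counts and sums.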

Additional observations from a re-analysis of the deposited data

How the results depend on the processing

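The 117 log2 fold changes of the 9 factors over 13 contrasts were recomputed under each alternative, apart from the fit of the microglia libraries only, which gave 81, and the fits with 1 library left out, which left out those of each comparison in turn. Their direction and side of the threshold held for all 117 with the replicate block and with ribosomal RNA left out, for 116 with filterByExpr, 115 without a filter, 113 with the size factors of DESeq2, 110 with its Wald test, 109 in fits of the groups compared only, and 77 of 81 in the microglia libraries only. The replicate block gave 6 genes that passed in WT microglia at 1 d against sham controls, as without it, and changed no other call. The labels do not say what a replicate number marks, and in 0 of 11 comparisons was the correlation of every pair above 0.1, so the numbers were not treated as pairs. Some pairs did deviate together, with r of 0.44, 0.20 and 0.063 for numbers 1, 2 and 3 between mutant and WT microglia at 1 d, and 11 of 21 libraries correlated best with their own number.

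Counts of the 9 factors that passed moved as follows, and the cause was not tested. For WT microglia at 7 d against sham controls the count was 0, and it was 1 in fits of the microglia libraries only, of the groups compared only, with DESeq2 and at an adjusted p under 0.1. For mutant microglia at 1 d against sham controls it was 3 and with DESeq2 5. For 7 d against 1 d it was 4 in WT microglia and 2 with an absolute log2 fold change above 1. In mutant microglia it was 2, and it was 1 without a filter, 1 in a fit of the groups compared and 0 with that fold bar. Leaving out 1 library, the counts ranged from 0 to 1 (WT 7 d against sham controls), 2 to 4 (mutant 1 d against sham controls), 1 to 3 (WT 7 d against 1 d) and 0 to 3 (mutant 7 d against 1 d). Of 28 calls, 19 were kept without any 1 library and 9 were lost without at least 1. Over all genes tested, DESeq2 called 1305 against 640 with edgeR in WT and 591 against 211 in mutant microglia at 7 d, 3564 against 2333 in mutant microglia at 1 d (all against sham controls), 3875 against 2453 in WT and 2365 against 1343 in mutant microglia from 1 d to 7 d, and 82 against 10, 73 against 9 and 621 against 49 between genotypes in microglia at 1 d, at 7 d and in infiltrating cells.

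No call changed its direction. Of the log2 fold changes that had not passed, that of Spi1 between genotypes in microglia at 1 d turned to -0.015 with the size factors of DESeq2, -0.022 with filterByExpr, -0.0073 in a fit of the groups compared and -0.015 with the Wald test, and that of Runx1 in WT microglia at 7 d against sham controls to -0.010 in the microglia libraries only. With 1 library left out, these crossed 0. Against sham controls, Spi1 ranged from -0.14 to 0.0060 (WT 1 d), -0.13 to 0.0033 (mutant 1 d) and -0.067 to 0.063 (mutant 7 d), Runx1 from -0.11 to 0.20 (WT 7 d) and -0.16 to 0.15 (mutant 7 d), Irf8 from -0.22 to 0.0029 (mutant 1 d) and Cebpb from -0.24 to 0.088 (mutant 7 d). Between genotypes, Spi1 ranged from -0.069 to 0.070 and Mef2a from -0.14 to 0.12 in microglia at 1 d, Maf from -0.0053 to 0.17 at 7 d, and in infiltrating cells Maf from -0.077 to 0.43 and Sall3 from -0.62 to 0.61. Maf in mutant infiltrating cells against microglia ranged from -0.17 to 0.29. The genotype effect of Cebpb at 7 d less that at 1 d ranged from -0.20 to 0.22. The genotype effect in infiltrating cells less that in microglia ranged from -0.62 to 0.034 for Sall1, -1.04 to 0.19 for Sall3, -0.37 to 0.12 for Irf8, -0.16 to 0.31 for Cebpb, -0.49 to 0.015 for Maf and -0.025 to 0.23 for Mef2c. The 9 factors were above the floor of 3 counts in every library, though Sall3 had as few as 15 counts in infiltrating cells. Whether depth limited them was not tested, and 3 libraries a group did limit the precision.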
